A study of Saccharomyces cerevisiae with 6 samples.

Results

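FRM2 (YCL026C-A) and HBN1 (YCL026C-B) are neighbouring genes of the budding yeast Saccharomyces cerevisiae that encode proteins similar to bacterial nitroreductases. Both were chosen by identifier from the 7126 gene rows of a count table, FRM2 because it had the largest rise in the R256C strain among genes with a mean of at least 10 CPM (read counts scaled to the size of the library), and HBN1 because it lies beside FRM2 and resembles it. The table covers poly(A)-selected RNA of WT yeast and of yeast whose actin carries the substitution R256C (arginine to cysteine), both labelled S288C, with 3 libraries per strain described as biological replicates. All cultures were untreated, grew in the rich medium YPD and were collected in early exponential growth. The study sets this substitution in the context of a modified arginine of actin and of transcription, and the comparison asks how mRNA levels differ between the strains. Whether the R256C cultures came from more than 1 isolate is not given in the sources used here, so any further genetic difference and the substitution cannot be told apart.

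Nitroreductases are flavin-dependent enzymes that pass electrons from NADH or NADPH to nitro groups, quinones and related compounds. Frm2 uses NADH. Mutants that lack it are impaired in the repression of fatty acid synthesis genes by fatty acids, the source of its name, and it takes part in the response to oxidants. Transcription of FRM2 is known to be induced by cadmium and selenite. The role of Hbn1 is less well known.

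FRM2 and HBN1 lie in tandem on the minus strand of chromosome III in the R64 genome, FRM2 at 74704 to 75285 and HBN1 at 73405 to 73986, each as a single coding exon of 582 bases. A gap of 717 bases separates them, and it holds the replication origin ARS306 (74458 to 74677). Upstream of FRM2, after a gap of 732 bases, lies AGP1 on the same strand. Downstream of HBN1, 63 bases away, FUS1 ends on the opposite strand. No other annotated feature overlapped either gene (0 in the R64 annotation).

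The encoded proteins have 193 residues each and were identical at 113 of them (58.5%) in a global alignment without gaps. Among the annotated proteins of this yeast, each was the closest match of the other by BLAST (E = 1.38e-85), and the next best match had an E value of 1.0 for Frm2 and 1.4 for Hbn1. The coding sequences were identical at 358 of 582 bases (61.5%). The longest run of bases shared by both coding sequences is 11 bases. It is shown in capitals below within its surroundings on the coding strand, because it bears on whether reads of the pair could have been confused, FRM2 at chrIII:75098-75150 and HBN1 at chrIII:73799-73851.
FRM2 coding stretch: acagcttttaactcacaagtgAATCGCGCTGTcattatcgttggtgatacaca
HBN1 coding stretch: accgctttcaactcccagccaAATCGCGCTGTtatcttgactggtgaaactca
None of the 553 stretches of 30 bases in either gene recurred elsewhere in the genome (0 for each). Reads of at least that length that match the reference therefore have 1 place to map for these genes.

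The regions around the start codons, from 250 bases before to 50 bases after the first base of the start codon, are given because the tandem genes differed in opposite directions between the strains. They were read from the R64 genome on the minus strand, FRM2 at chrIII:75236-75535 and HBN1 at chrIII:73937-74236. Capitals mark the start codon and, in HBN1, a match to a searched motif.
FRM2 promoter: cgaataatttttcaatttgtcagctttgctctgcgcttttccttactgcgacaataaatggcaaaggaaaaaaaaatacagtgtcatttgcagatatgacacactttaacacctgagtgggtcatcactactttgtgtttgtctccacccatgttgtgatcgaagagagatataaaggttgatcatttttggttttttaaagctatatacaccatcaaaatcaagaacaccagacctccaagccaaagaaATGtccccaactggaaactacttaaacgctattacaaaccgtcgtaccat
HBN1 promoter: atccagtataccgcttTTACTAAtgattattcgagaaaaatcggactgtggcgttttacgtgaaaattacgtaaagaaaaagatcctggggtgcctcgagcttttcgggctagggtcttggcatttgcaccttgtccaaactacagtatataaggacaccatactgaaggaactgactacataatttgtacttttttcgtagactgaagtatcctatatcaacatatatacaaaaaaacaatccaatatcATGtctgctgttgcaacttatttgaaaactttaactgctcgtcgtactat
Motifs were searched on both strands in this window. TTACTAA, a site of the transcription factor Yap1, which responds to oxidants, was present in HBN1 at position -234 and absent from the FRM2 window. Of 6001 promoters, 7.4% held it. Other forms of a Yap1 site were not searched, so the windows may hold more. The stress element CCCCT was in neither window (21.6% of promoters held it), and neither was CCGCGG, the core of the Pdr1 and Pdr3 motif (1.2%). These searches say only which letters the windows hold.

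FRM2 mRNA was scarce in WT and of middle abundance in R256C. FRM2 counts were 93, 87 and 58 reads in WT replicates 1, 2 and 3, and 635, 832 and 553 reads in R256C replicates 1, 2 and 3. In CPM, the count as a share of the TMM-scaled library size, these were 7.38, 5.72 and 5.42 in WT and 51.6, 71.7 and 59.7 in R256C. The lowest R256C library was thus far above the highest WT library, and R256C replicate 2 was the highest of all. FRM2 averaged 6.18 ± 1.06 CPM in WT against 61.0 ± 10.1 CPM in R256C (SD, n = 3 each), a ratio of 9.88 and a fitted log2 fold change of 3.30 (SE 0.17). Because this contrast chose FRM2, the difference is given as a description with no test.

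HBN1 mRNA differed in the opposite direction. HBN1 counts were 286, 414 and 248 reads in WT replicates 1, 2 and 3, and 133, 149 and 130 reads in R256C replicates 1, 2 and 3. The HBN1 levels were 22.7, 27.2 and 23.2 CPM in WT and 10.8, 12.8 and 14.0 CPM in R256C. All R256C libraries were below all WT libraries, without overlap. HBN1 averaged 24.4 ± 2.48 CPM in WT against 12.6 ± 1.63 CPM in R256C (SD, n = 3 each), 1.94-fold lower in R256C, with a fitted log2 fold change of -0.96 (SE 0.15). HBN1 was chosen with results of this contrast known, so it is described in the same way. CPM are shares of the mRNA counted, so a change in the total mRNA of a cell cannot be told apart from them.

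**Figure D1:**
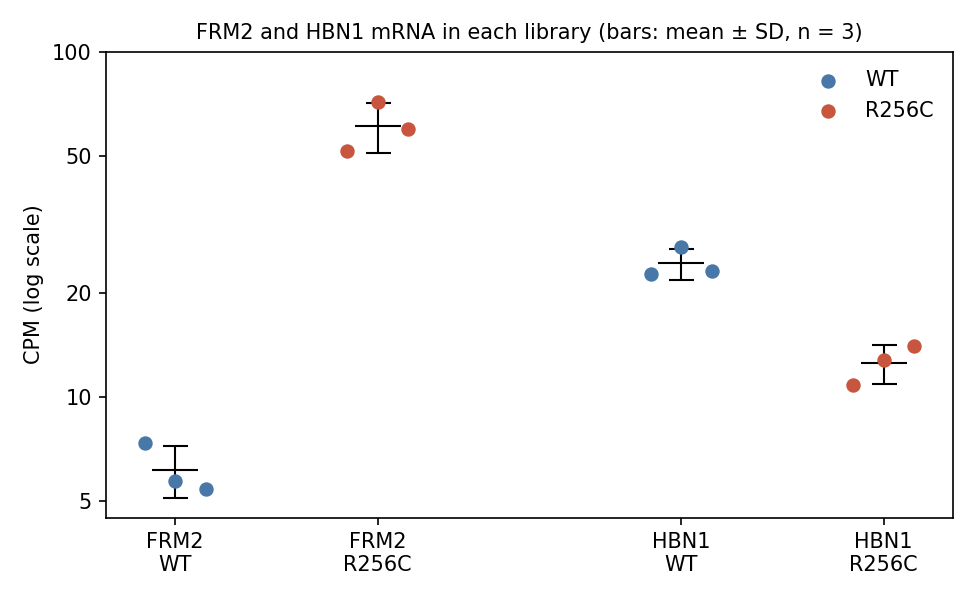
CPM of FRM2 and HBN1 in each library on a log scale, with WT in blue and R256C in red; horizontal bars and whiskers give the mean and SD of 3 libraries. FRM2 lies at 5.42 to 7.38 CPM in WT and 51.6 to 71.7 CPM in R256C, and HBN1 at 22.7 to 27.2 CPM in WT and 10.8 to 14.0 CPM in R256C.

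The measured spread of FRM2 between replicates was above the counting error in both strains, and by more in R256C. A spread from 3 libraries is imprecise, and whether it exceeds the counting error was not tested. The coefficient of variation of FRM2 was 17.1% in WT, where the counting error alone of single libraries was 10.4 to 13.1%. In R256C it was 16.5%, against a counting error of 3.47 to 4.25%. For HBN1 the coefficients were 10.2% in WT (counting error 4.91 to 6.35%) and 12.9% in R256C (8.19 to 8.77%). The counting errors assume independent reads and cover counting error only.

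The order of the pair was reversed between the strains. Since both genes have the same length, their counts can be compared directly. FRM2 reads were 0.325, 0.210 and 0.234 times the HBN1 reads in WT replicates 1, 2 and 3, and 4.77, 5.58 and 4.25 times in R256C replicates 1, 2 and 3. HBN1 was therefore the more abundant of the pair in every WT library and FRM2 in every R256C library. FRM2 made up 20.3 ± 3.77% of the reads of the pair in WT and, in the R256C libraries, 82.8 ± 1.93% (SD, n = 3 each). The level of the pair together was 30.6 ± 2.204 CPM in WT and 73.6 ± 11.02 CPM in R256C, a ratio of 2.41.

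Against other genes, both members moved a long way in the order of levels. Per kilobase of gene, FRM2 stood at 10.6 ± 1.82 CPM per kb in WT, above 6.13 ± 0.959% of 5799 tested protein-coding genes, and at 105 ± 17.3 CPM per kb in R256C, above 67.2 ± 5.99% of them (SD, n = 3 each). HBN1 went from 41.9 ± 4.26 CPM per kb, above 31.6 ± 4.55% of those genes, to 21.6 ± 2.80 CPM per kb, above 13.4 ± 1.81%. In WT both were therefore in the lower part of the range, and in R256C only FRM2 was in the upper part.

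FRM2 had the largest log2 fold change of 5499 genes with a mean of at least 10 CPM, as its choice requires. The next were HEM13 (3.04), for an oxygen-requiring enzyme of heme synthesis, FMP48 (2.997), for a putative protein kinase, and STP4 (2.85), for a zinc finger protein. The limit is on the mean of all 6 libraries. FRM2 (6.18 CPM in WT, 61.0 CPM in R256C) and FMP48 (6.57 CPM in WT, 52.0 CPM in R256C) passed it only through R256C. Below the limit of 10 CPM, 1 gene row had a larger value, the transfer RNA gene tK(CUU)J, with 3, 2 and 1 reads in WT and 16, 27 and 27 reads in R256C (log2 fold change 3.70). HBN1 ranked 174th from the lower end of the same 5499 genes.

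**Figure D2:**
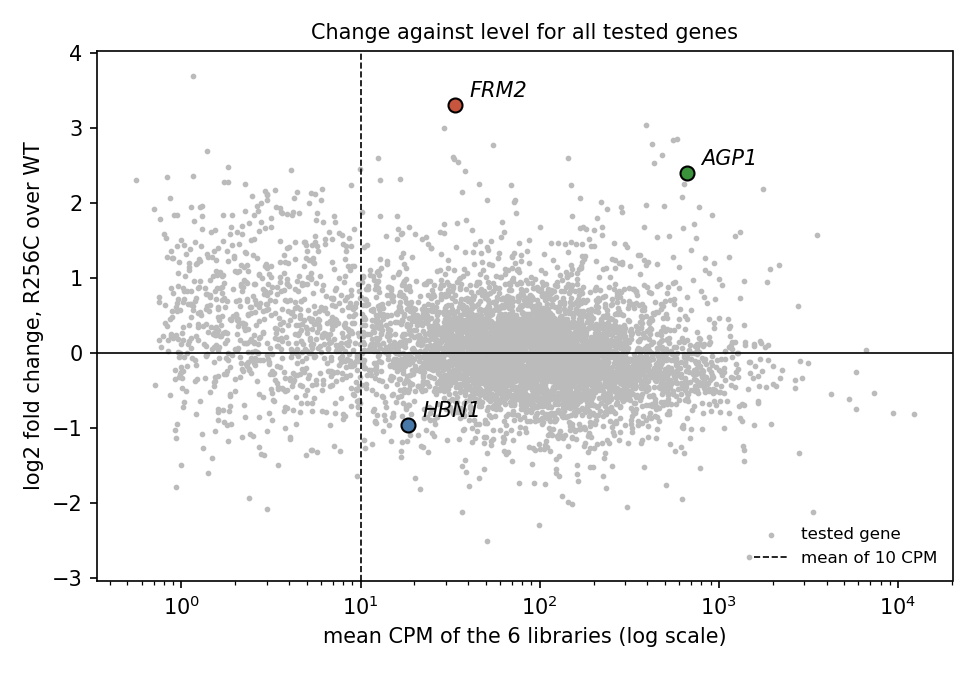
Log2 fold change of R256C over WT against the mean CPM of the 6 libraries (log scale) for all 6337 tested genes, in grey, with FRM2, HBN1 and the neighbour AGP1 marked; the dashed line is a mean of 10 CPM. FRM2, at 3.30, is the highest point to the right of the line, AGP1 lies at 2.40 and HBN1 at -0.96.

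These values stand against a transcriptome in which a large share of genes differed. Of 6337 genes tested with edgeR's quasi-likelihood test, 42.7% passed an adjusted p under 0.05 (Benjamini-Hochberg over all genes tested), 21.2% higher and 21.4% lower in R256C, and in 54.9% the libraries of the strains did not overlap. The libraries held 8967232 to 16905818 reads in genes. ACT1, the actin gene, had 1512, 2094 and 1608 CPM in WT and 1354, 1373 and 1404 CPM in R256C (log2 fold change -0.34, adjusted p = 0.124). Its mRNA level does not check the genotype, since gene counts do not show the substituted base. WT replicate 2 stood apart from the other WT libraries: correlations of log2 CPM went down to 0.977 within WT and to 0.993 within R256C. Without it the log2 fold change was 3.24 for FRM2 and -0.88 for HBN1. With library totals alone as scaling, 1639 genes were higher and 886 lower, against 1345 and 1358, so that 64.9% of the genes called were higher and not 49.8%. Under that scaling FRM2 stood at 3.40 and HBN1 at -0.86.

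The genes around the pair on chromosome III were not of a single direction either. Of the 10 annotated genes nearest the pair, 5 on each side, 9 had a row under the annotated identifier and all 9 were tested: 2 rose, 6 fell and 1 did not pass (median log2 fold change -0.75, against -0.01 for all tested genes). The share called was 88.9%, against 42.7% of all genes tested, and 9 of 9 did not overlap between the strains, against 54.9%. Chromosome III as a whole had a median of -0.09 over 152 protein-coding genes, of which 29 rose and 40 fell. The member values and those of these neighbours are set out by position in the plot of the locus.

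**Figure D3:**
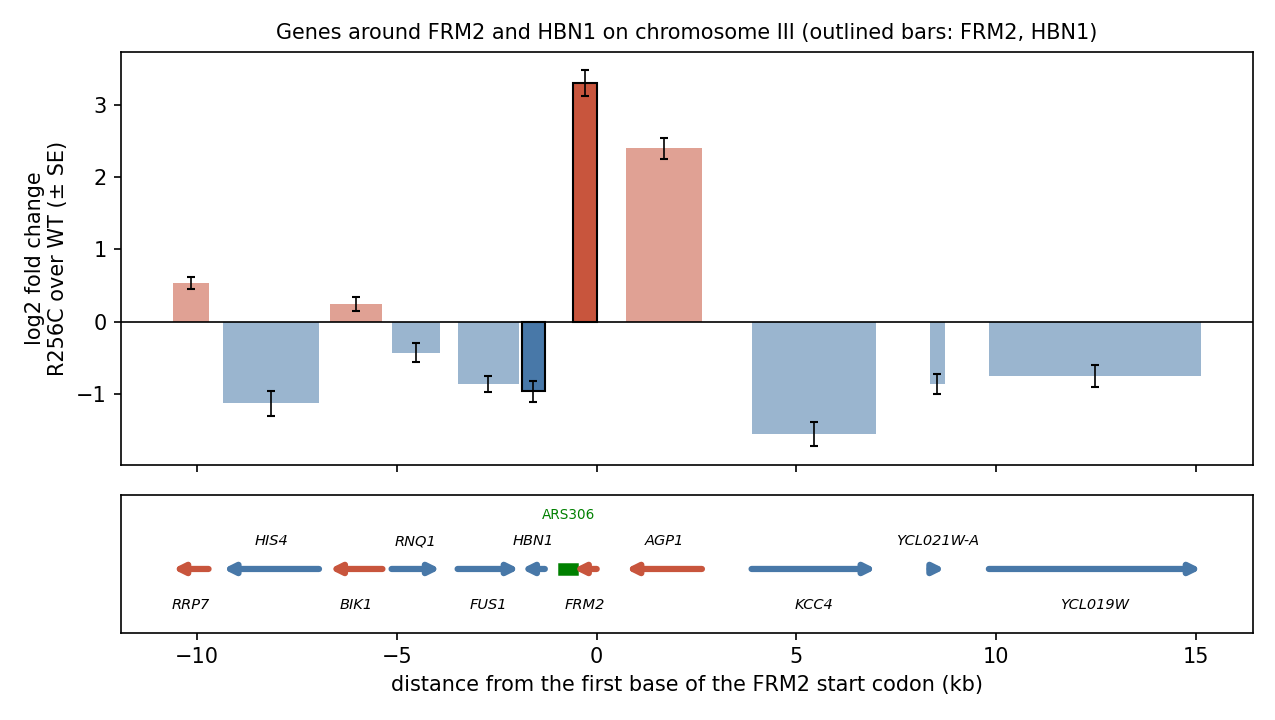
Log2 fold change of R256C over WT (bars, ± SE) for FRM2, HBN1 (outlined) and 9 neighbouring genes, at their distance in kb from the FRM2 start codon, above a map in which arrows give the direction of transcription and a green block the origin ARS306. FRM2 (3.30) and AGP1 (2.40) stand up side by side, while HBN1 (-0.96) and FUS1 (-0.86) on one side and KCC4 (-1.56) on the other lie below 0.

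AGP1 (YCL025C), the gene upstream of FRM2 and on the same strand, encodes a broad-range amino acid permease. Its level was 216, 178 and 241 CPM in WT replicates 1, 2 and 3, and 1105, 1169 and 1069 CPM in R256C replicates 1, 2 and 3. The groups were far apart, and AGP1 rose 5.27-fold, from 211 ± 31.8 to 1114 ± 50.5 CPM (n = 3 each, ± SD), with a log2 fold change of 2.40 ± 0.15 (SE; edgeR adjusted p = 2.32e-05). FRM2 reads amounted to 3.42, 3.22 and 2.25% of the AGP1 reads in the WT libraries and to 4.67, 6.13 and 5.58% in the R256C libraries. FRM2 was higher in R256C by more than AGP1, by 0.90 on the log2 scale. That FRM2 exceeded AGP1 follows from its choice as the largest rise, so it is a description only. Gene counts do not show where a transcript starts, so FRM2 mRNA and RNA that began at AGP1 and ran on into FRM2 cannot be told apart, and the part of the latter was not tested. Among 2733 pairs of adjacent protein-coding genes on the same strand with both genes tested, both rose by at least 2-fold in 27 (0.988%). FRM2 and AGP1 are among these pairs, and the count was made after their values had been seen. Since FRM2 was chosen for its rise, this share of all pairs does not say how often the neighbour of a risen gene rose.

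FUS1 (YCL027W), which encodes a membrane protein for cell fusion in mating and faces the end of HBN1, had 161, 128 and 140 CPM in WT replicates 1, 2 and 3 and 84.6, 77.0 and 74.7 CPM in R256C replicates 1, 2 and 3. It fell without overlap of the strains (log2 fold change -0.86 ± 0.11, SE; edgeR adjusted p = 0.000528). HBN1 reads were 14.1, 21.2 and 16.6% of the FUS1 reads in the WT libraries and 12.8, 16.7 and 18.8% in the R256C libraries, so this ratio overlapped between the strains. The library kit keeps the strand, but whether the counting used it is not given in the sources used here. If it did not, RNA of FUS1 that ran on across the gap of 63 bases into HBN1 would have been counted with HBN1, and its part was not tested.

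Farther out, KCC4 (YCL024W), for a kinase of the bud neck, fell from 72.8 ± 7.31 CPM in WT to 24.7 ± 5.77 CPM (n = 3 each, ± SD), with a log2 fold change of -1.56 ± 0.17 (SE; edgeR adjusted p = 0.000227). HIS4, for histidine synthesis, fell by 1.13 on the log2 scale, RNQ1, a prion protein gene, by 0.43 and the uncharacterised YCL021W-A by 0.87. The call of RNQ1 was lost without WT replicate 3 or any 1 of the R256C replicates (largest adjusted p = 0.113). YCL019W, a retrotransposon gene, fell by 0.75. It belongs to a repeated family, so its own count is uncertain. RRP7, for ribosome assembly, rose (0.53), and BIK1, a microtubule protein gene, did not pass (0.25, adjusted p = 0.0596), though it passed without WT replicate 2 (0.27, adjusted p = 0.0215) and with library totals alone as scaling (0.35, adjusted p = 0.0211).

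The opposite directions of FRM2 and HBN1 made theirs the widest difference of any of the 2733 adjacent pairs on the same strand: 4.26 on the log2 scale, with 0 pairs above it, where the median pair differed by 0.39. The choice of FRM2 for its rise leads towards such a rank, so it is a description. In 152 of these pairs (5.56%) the genes were called in opposite directions.

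Of 7 genes for other reductases of quinones or unsaturated carbonyls or for flavodoxin-like proteins, 1 rose, 2 fell and 4 did not pass (median log2 fold change 0.11). The share called, 42.9%, was that of all genes tested (42.7%). With library totals alone as scaling, 2 rose and 1 fell, since OYE2, another old yellow enzyme gene, passed (0.46, adjusted p = 0.025) and ZTA1 did not (adjusted p = 0.0752). Without the filter on low counts, 0 rose and 2 fell, since OYE3 did not pass (adjusted p = 0.0501). OYE3, an NADPH dehydrogenase gene of the old yellow enzyme family, had 4.61, 5.98 and 4.39 CPM in WT replicates 1, 2 and 3 and 6.91, 7.58 and 8.31 CPM in R256C replicates 1, 2 and 3. The strains were close but did not overlap, and OYE3 rose by 0.59 (SE 0.20, edgeR adjusted p = 0.0436). RFS1, for a flavodoxin-like protein, fell from 176 ± 12.3 CPM in WT to 117 ± 14.7 CPM (n = 3 each, ± SD), with a log2 fold change of -0.59 ± 0.11 (SE; adjusted p = 0.00357), and ZTA1, a quinone reductase gene, fell by 0.38 on the log2 scale (adjusted p = 0.0368). PST2, a relative of RFS1, did not pass (-0.21, adjusted p = 0.107). The call of OYE3 was kept in only 1 of the 6 fits that left out a library, without WT replicate 2 (largest adjusted p in the others 0.152), and that of ZTA1 was lost without WT replicate 3 or any 1 of the R256C replicates (largest 0.14). Without WT replicate 2 the count called was 5 of 7 (3 rose, 2 fell). In that fit OYE2 (0.51, adjusted p = 0.000515) and LOT6 of the same list (0.90, adjusted p = 0.00125) rose as well. The count was 1 without WT replicate 3 or any 1 of the R256C replicates. Of all genes tested, 3759 of 6385 were called without WT replicate 2 and 1737 of 6391 without WT replicate 3. Without R256C replicate 1, 2 or 3, these were 1980 of 6370, 1806 of 6374 and 1740 of 6374.

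Of 17 genes of the Yap1 pathway, through which yeast cells respond to oxidants, 3 rose, 6 fell and 8 did not pass (52.9% called, against 42.7% of all genes tested; median -0.34). With library totals alone as scaling, 3 rose and 4 fell, since CAD1 (adjusted p = 0.0929) and FLR1 (adjusted p = 0.112) did not pass. AHP1, a thiol peroxidase gene, had 4622, 5972 and 5687 CPM in WT replicates 1, 2 and 3 and 1294, 1297 and 1155 CPM in R256C replicates 1, 2 and 3. All WT libraries lay above all R256C libraries, and AHP1 fell by 2.12 (SE 0.18, edgeR adjusted p = 8.02e-05). The cytosolic thioredoxin gene TRX2 (-0.90), the thioredoxin reductase gene TRR1 (-0.70) and HYR1 (-0.70), for the peroxide sensor of Yap1, fell as well. GTT2, a glutathione transferase gene, went against them and rose from 24.9 ± 2.87 CPM in WT to 42.4 ± 1.94 CPM (n = 3 each, ± SD), with a log2 fold change of 0.77 ± 0.11 (SE; adjusted p = 0.00117). The regulator gene SKN7 (0.37, adjusted p = 0.0237) and the multidrug transporter gene ATR1 (0.32, adjusted p = 0.028) also rose. YAP1 itself did not pass (-0.09, adjusted p = 0.632), but passed without WT replicate 2 (-0.21, adjusted p = 0.0377). SKN7 did not pass without WT replicate 3, R256C replicate 1 or R256C replicate 3 (largest adjusted p = 0.0906), and ATR1 passed in only 1 of the 6 fits that left out a library, without WT replicate 2 (largest 0.114). Of the genes that fell, CAD1 (-0.62) overlapped between the strains and also passed only without WT replicate 2 (largest 0.108). FLR1 (-0.34) did not pass without WT replicate 3 or R256C replicate 1 or 2 (largest 0.0717). The count called was 5 of 17 without WT replicate 3 or R256C replicate 1, and 12 without WT replicate 2. Of all genes tested, these fits called 1737 of 6391, 1980 of 6370 and 3759 of 6385.

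Among 9 genes for enzymes that remove superoxide and peroxides or for a chaperone of such an enzyme, 2 rose and 2 fell (median -0.24). The share called, 44.4%, was near that of all genes tested (42.7%). The cytosolic catalase gene CTT1 rose from 33.7 ± 7.01 CPM in WT to 60.9 ± 5.16 CPM (n = 3 each, ± SD), with a log2 fold change of 0.86 ± 0.15 (SE; edgeR adjusted p = 0.00261), and the peroxisomal catalase gene CTA1 rose by 0.25 (adjusted p = 0.046). CCS1, the copper chaperone of superoxide dismutase, fell by 0.51 on the log2 scale and the glutaredoxin gene GRX1 by 0.39. The call of CTA1 was kept only without WT replicate 1 among the 6 fits that left out a library (largest adjusted p in the others 0.124), and that of GRX1 was lost without R256C replicate 1 or 3 (largest 0.0857). The count called was 7 of 9 without WT replicate 2 and 2 without R256C replicate 1 or R256C replicate 3. Of all genes tested, these fits called 3759 of 6385, 1980 of 6370 and 1740 of 6374.

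Frm2 is involved in the repression of fatty acid synthesis genes by fatty acids. Of 17 genes of synthesis, elongation, activation and their regulation, 6 rose, 3 fell and 8 did not pass (52.9% called, against 42.7% of all genes tested; median 0.10). OLE1, the fatty acid desaturase gene, had 774, 469 and 678 CPM in WT replicates 1, 2 and 3 and 2954, 2834 and 2936 CPM in R256C replicates 1, 2 and 3. It was several times higher in every R256C library, with a log2 fold change of 2.18 (SE 0.20, edgeR adjusted p = 0.000129). FAA4, a long-chain fatty acid activation gene, rose from 622 ± 80.4 CPM in WT to 1828 ± 79.6 CPM (n = 3 each, ± SD), with a log2 fold change of 1.55 ± 0.14 (SE; adjusted p = 0.00013), and MGA2 (0.80), for an activator of OLE1, rose too. Against these, IFA38 (-0.67) and PHS1 (-0.46), for steps of fatty acid elongation, and FAA3 (-0.39), another activation gene, fell. Of the synthase and carboxylase genes, FAS2 rose by 0.45 (adjusted p = 0.0342), while FAS1 (0.15, adjusted p = 0.467) and ACC1 (0.33, adjusted p = 0.105) did not pass. DESeq2 called ACC1 as higher (0.32, adjusted p = 0.034). FAS2 did not pass without WT replicate 3, R256C replicate 2 or R256C replicate 3 (largest adjusted p = 0.153), and FAA3 did not without R256C replicate 2 (0.0525).

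Of 10 genes for the supply of flavin cofactors, which nitroreductases bind, 1 rose and 2 fell (30% called, against 42.7% of all genes tested; median -0.01), with values from -0.47 to 0.41. With library totals alone as scaling, 3 rose and 0 fell: RIB4 (0.53, adjusted p = 0.0317) and FMN1 (0.28, adjusted p = 0.0477) passed, and RIB7 (adjusted p = 0.0825) and FLX1 (adjusted p = 0.122) did not. FAD1, for FAD synthesis, rose by 0.41 (edgeR adjusted p = 0.015), and RIB7 of riboflavin synthesis (-0.37, adjusted p = 0.0113) and the mitochondrial flavin carrier gene FLX1 (-0.35, adjusted p = 0.0224) fell. RIB1 stood at -0.47 and did not pass (adjusted p = 0.0822), but passed without WT replicate 2 (-0.67, adjusted p = 0.00016) and with DESeq2 (adjusted p = 0.0477). RIB4 also passed without WT replicate 2, as higher (0.70, edgeR adjusted p = 4.5e-06). None of the 3 calls was kept in every fit that left out a library: 0 of 10 genes were called without WT replicate 3, 1 without any 1 of the R256C replicates and 5 without WT replicate 2. Of all genes tested, 1737 of 6391 were called without WT replicate 3 and 3759 of 6385 without WT replicate 2. Without R256C replicate 1, 2 or 3, these were 1980 of 6370, 1806 of 6374 and 1740 of 6374.

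Of 10 genes of multidrug resistance, which export foreign compounds and control that export, 1 rose and 4 fell (50% called, against 42.7% of all genes tested; median -0.21). With library totals alone as scaling, 1 rose and 2 fell, since YRR1 (adjusted p = 0.119) and PDR5 (adjusted p = 0.0615) did not pass. The regulator gene PDR1 fell from 144 ± 14.8 CPM in WT to 86.8 ± 2.07 CPM (n = 3 each, ± SD), with a log2 fold change of -0.73 ± 0.10 (SE; edgeR adjusted p = 0.0007), and its relative PDR3 (-0.40) and the regulator gene YRR1 (-0.42) fell as well. YRM1, another regulator gene of drug resistance, rose by 0.37 (adjusted p = 0.00715). The exporter gene PDR5 fell by 0.44 on the log2 scale (adjusted p = 0.038). The call of YRR1 was lost without WT replicate 1 or 3 or R256C replicate 1 or 3 (largest adjusted p = 0.0906), and that of PDR5 was kept only without WT replicate 2 (largest in the others 0.161). The count called was 3 of 10 without WT replicate 3, R256C replicate 1 or R256C replicate 3. Of all genes tested, these fits called 1737 of 6391, 1980 of 6370 and 1740 of 6374.

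**Figure D4:**
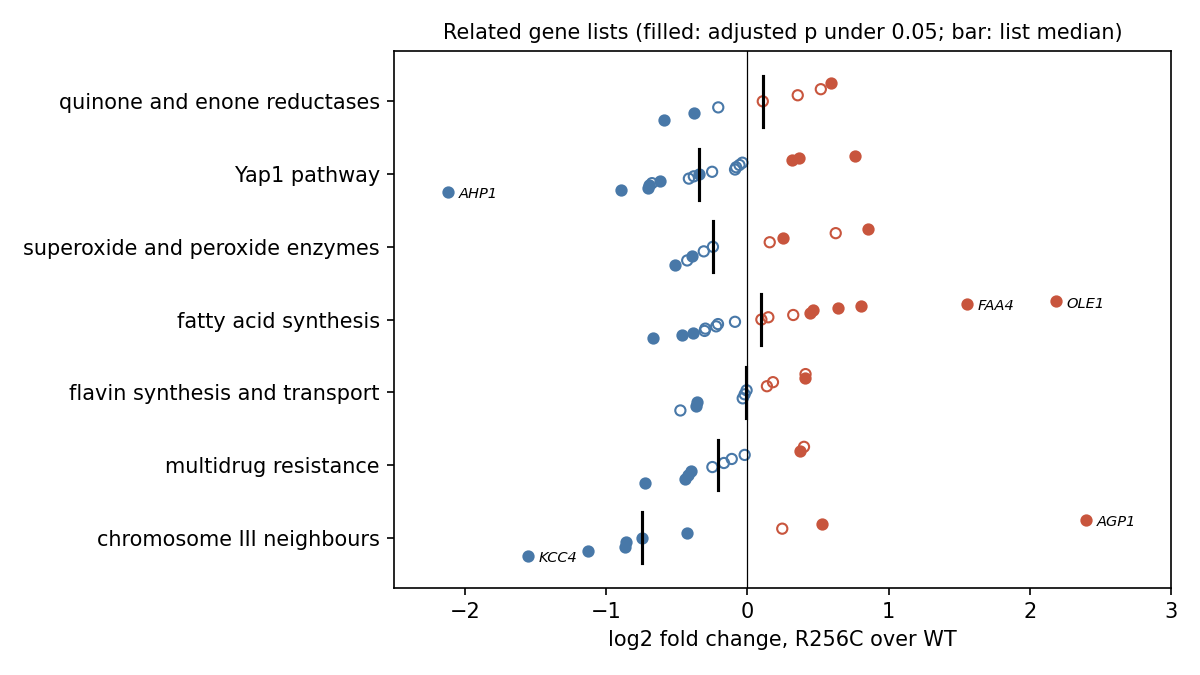
Log2 fold change of R256C over WT for each gene of the 6 related lists and for 9 neighbours on chromosome III, in red above 0 and blue below; filled points passed an adjusted p under 0.05 and the black bar is the median of the list. The medians lie between -0.34 and 0.11 for the 6 lists and at -0.75 for the neighbours. No gene plotted reaches the 3.30 of FRM2, as the choice of FRM2 requires of those with a mean of at least 10 CPM.

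The genes most like each member were found from log2 CPM centred on the WT mean of each gene, as the smallest root mean square difference over the 6 libraries among 5498 other genes with a mean of at least 10 CPM. For FRM2 they were FMP48 (0.31), GAT2 (0.33), a GATA-type zinc finger gene, HEM13 (0.36), HAP4 (0.39), for an activator of respiratory genes, and STP4 (0.39). FMP48 had 6.57 ± 1.54 CPM in WT against 52.0 ± 11.04 CPM in the R256C libraries (SD, n = 3 each), and FMP48 and FRM2 were both highest in R256C replicate 2. For HBN1 they were RFA2 (0.067), for a subunit of the replication protein that binds single-stranded DNA, TOS6 (0.071), a cell wall protein gene, TOM71 (0.072), a mitochondrial import gene, KAR4 (0.074), a transcription factor gene of mating, and CDC21 (0.079), for thymidylate synthase. The 5 genes near HBN1 had log2 fold changes from -1.04 to -0.89. The distances for FRM2 were several times those for HBN1. FRM2 was chosen as the largest rise, so other genes could come near its fold change only from below, and this contrast is a description. FRM2 and HBN1 themselves were 2.98 apart on this scale. The distance is set mainly by the difference between the strains, so it describes likeness over these 6 libraries only.

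**Figure D5:**
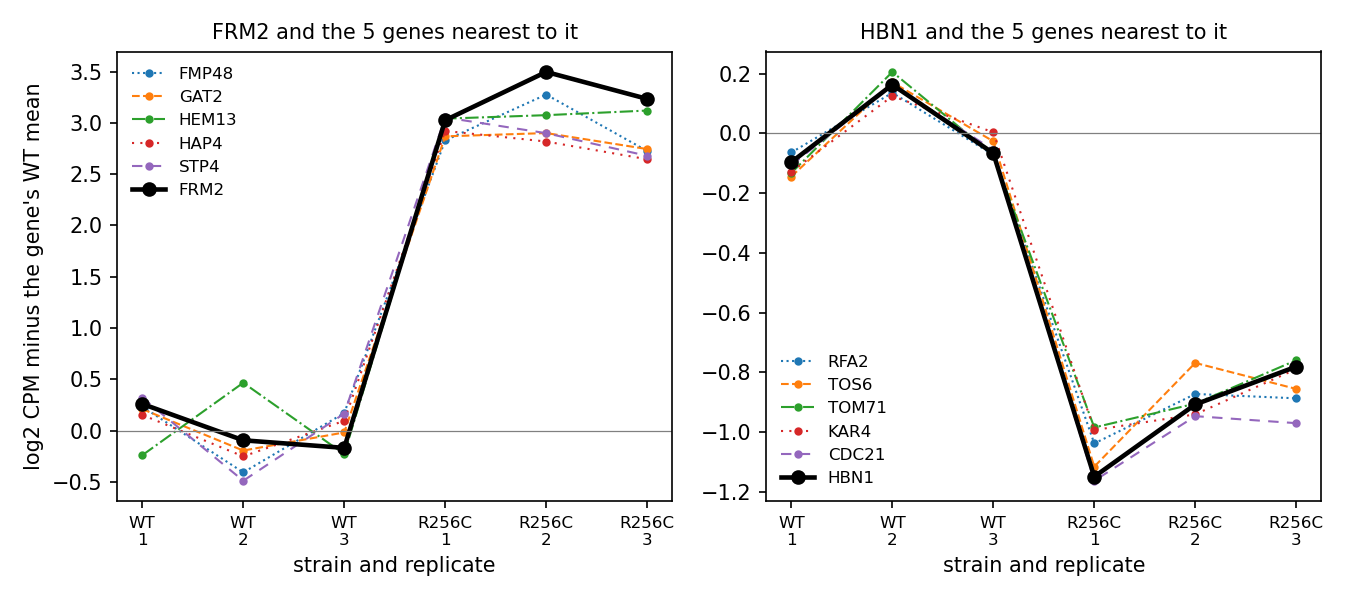
Log2 CPM minus the WT mean of each gene in the 6 libraries, for FRM2 with its 5 nearest genes (left) and HBN1 with its 5 nearest genes (right); the thick black line is the member. FRM2 lies above its 5 genes in R256C replicates 2 and 3 and below HEM13 and STP4 in R256C replicate 1, while HBN1 runs among its neighbours in every library.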

How the data were processed

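Poly(A)-selected RNA from 3 WT and 3 R256C cultures was made into libraries with a stranded mRNA kit, per the labels' protocols. The authors deposited whole-number read counts per gene, not normalized. TopHat, HTSeq, DESeq and the build R64 are named in the submitters' processing notes (versions, roles and settings not given in the sources used here). The deposited table holds 7126 gene rows and 5 summary rows, which were left out of library sizes and tests. The R64 annotation of RefSeq, joined by locus tag, named 6048 rows. No library was a repeat of another: chi-square divided by its degrees of freedom was at least 7.03 for pairs of a strain. The tests used edgeR 4.0.16 in R 4.3.3, with filterByExpr (6337 genes kept), TMM scaling and the quasi-likelihood F test on genotype alone; p was adjusted after Benjamini-Hochberg across every gene tested, with a threshold of 0.05. CPM use TMM-scaled library sizes, and the SE of a log2 fold change is its size over the root of F. The scripts were tested on simulated data in which few genes changed, in random directions, and no library stood apart. That test does not cover a change in a large share of genes, as seen here. The p-values measure the spread between 3 cultures per strain.

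Alternatives were DESeq2 1.42.0, limma-voom (limma 3.58.1), DESeq2 size factors, library totals, other filters, other prior counts, each library left out, and the replicate number as a block. Proteins were translated from the genome and compared with Biopython 1.88 (BLOSUM62) and BLAST+ 2.17.0. The members, lists and rules were chosen with earlier results of these data known. The text names both members, ACT1, the neighbours, the genes next in rise, the 5 genes most like each member, and of each list the 4 with the smallest p and those called against its majority. FAS1, FAS2, ACC1, YAP1, TRR1, CAD1, FLR1, PDR5, OYE2, LOT6, RIB4 and FMN1 fall outside this rule and were chosen with their values known. No list was tested as a set.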

Additional observations from a re-analysis of the deposited data

How the results depend on the processing

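The log2 fold change of FRM2 ranged from 3.17 to 3.44 and that of HBN1 from -1.04 to -0.86 over all alternatives run, the fits that left out a library included, so that both kept their direction and moved by less than the spread between replicates. Across the results and alternatives, 112 values stayed within these limits and 22 counts moved by over 1.5 times. Only the fold changes of FRM2 and HBN1 could be recorded as reversed, and 0 were. Counts of genes called were compared without regard to direction. With library totals alone, the flavin list went from 1 rose and 2 fell to 3 rose and 0 fell, within the limit on counts. The reductase list went from 1 rose and 2 fell to 2 rose and 1 fell. Leaving out a library gave 1737 to 3759 genes called (2703 with all 6), 7 to 11 fatty acid synthesis genes, 0 to 5 flavin genes, 3 to 6 multidrug resistance genes, 1 to 5 reductase genes, 2 to 7 superoxide and peroxide genes, 5 to 12 Yap1 pathway genes and 7 to 9 neighbours. The number of genes called went down to 1737 without WT replicate 3 and 1740 without R256C replicate 3, and up to 3759 without WT replicate 2. DESeq2 called 7 superoxide and peroxide genes, and library totals alone called 3 multidrug resistance genes; the cause was not tested. OYE3 was not tested with the filter at 10 CPM in 3 libraries.

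The strains share replicate numbers, but same-numbered libraries did not deviate together (correlations -0.11, -0.07 and -0.07, with 0 of 6 libraries correlating best with its own number). The main tests did not pair libraries by number. With 3 libraries per strain and WT replicate 2 apart from the others, this check cannot show whether same-numbered cultures shared a batch. With the replicate number as a block, 2431 genes were called (1217 higher, 1214 lower), FRM2 stood at 3.30 and HBN1 at -0.96, and the calls of FAS2, PDR5, OYE3, CTA1 and ATR1 were lost, while RIB1 was called (-0.45, adjusted p = 0.0289). Depth limits FRM2 in WT most, where it rests on 58 to 93 reads per library.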
